A study of Mus musculus with 10 samples.

Results

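Ephrins, semaphorins, Slits and netrins are the 4 classical groups of axon guidance ligands, and their receptors are the Eph kinases, plexins, neuropilins, Robo and Unc5 proteins. The set described here holds the mouse protein-coding genes of these families, taken from the GENCODE annotation by symbol alone (Epha, Ephb, Efna, Efnb, Sema3 to Sema7, Plxna to Plxnd, Nrp1, Nrp2, Slit1 to Slit3, Robo1 to Robo4, Ntn1, Ntn3, Ntn4, Ntn5 and Unc5a to Unc5d), and the rule itself uses no measured value. The rule found 68 genes, 35 ligands and 33 receptors, of which 67 were among the 41091 gene identifiers of the files. Ntn3 was not analysed here. A filter on low counts kept 63 of them for testing, while Epha10, Epha8, Robo4 and Ntn5 stayed below 1 CPM (reads of a gene scaled to the size of the library) in every library and were not tested.

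The RNA came from cells of the adult olfactory epithelium of C57BL6 mice, collected 9 days after methimazole, a drug that destroys the olfactory epithelium so that it regrows from basal stem cells. The dissociated cells were kept as adherent cultures on gelatin with EGF and FGF2, and every group received a lentivirus with a short hairpin RNA. The groups were a scrambled non-targeting hairpin (shCTR, replicates 1, 2, 5 and 6), a Cbx7 hairpin (shCBX7, numbered 1, 2 and 5) and a Cbx8 hairpin (shCBX8, numbered 1, 2 and 6), so that the controls carried a virus and a hairpin too. The labels do not say how many hairpins were used per target. They also do not say whether replicates were separate cultures, so the p-values here reflect only the variation among these libraries, part of which may be technical. The targets, CBX7 and CBX8, belong to Polycomb repressive complex 1, which holds developmental genes in a repressed state, and the series asked what their loss does to the transcriptome of this epithelium.

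Guidance ligands attract or repel a growing axon or a moving cell through receptors that act on the actin skeleton. Ephrins are membrane-bound and meet Eph receptor tyrosine kinases on a neighbouring cell. Most of the secreted class 3 semaphorins act through a neuropilin, which binds the ligand, and a plexin, which carries the signal. Most membrane semaphorins bind plexins directly. Slits repel through Robo receptors, and netrins attract through Dcc and repel through Unc5. In the olfactory system, ephrin A, semaphorin with neuropilin, and Slit with Robo signals are known to sort the axons of olfactory neurons on their way to the olfactory bulb, and the same families also guide epithelial, vascular and mesenchymal cells.

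Library depth ran from 22763014 to 50463172 gene counts. Several signs of library quality moved with the group. The unmapped share of reads was 21.7, 19.6, 14 and 9.83% in shCTR 1, 2, 5 and 6 and ran from 5.03 to 7.81% in the knockdown libraries, and reads in no gene made up 20.4 to 23.6% in shCTR and 12.5 to 18.6% in the knockdowns. Forward-strand counts were 6.34 to 10.4% of stranded counts in shCTR, 7.75% in shCBX8 2 and 3.42 to 3.96% in the other knockdown libraries. Forward-strand reads over 1653 olfactory and vomeronasal receptor genes, taken as a measure of background, summed to 32.9 to 111 CPM in shCTR and 11 to 27.4 CPM in the knockdowns. The part of these differences in the results was not tested beyond the fits without shCTR 1 and 2 and with the receptor sum as a covariate, given below. In shCTR, Cbx8 measured 12.4, 15.9, 10.2 and 10.8 CPM, against 4.99, 5.14 and 4.71 CPM in shCBX8 (log2 fold change -1.31, SE 0.22, edgeR adjusted p = 0.00416). In shCTR, Cbx7 measured 17.7, 16.4, 13.5 and 5.30 CPM, against 3.64, 8.02 and 13.1 CPM in shCBX7 (log2 fold change -0.67, SE 0.48, edgeR adjusted p = 0.929), so the level of the target did not check the shCBX7 label. Markers of mature olfactory neurons were low in the cultures: the 7 genes of that list summed to 35.1 to 61.9 CPM in shCTR and 21.7 to 39.4 CPM in shCBX8, with Adcy3 the highest. By the test given below, 2 of 5 tested passed higher in shCBX8 against shCTR (40%, against 32.9% of all genes) and none lower. The other 3 had negative log2 fold changes. The labelled tissue is an epithelium, but 14 fibroblast markers summed to 6743 to 35014 CPM in shCTR, 6650 to 19759 CPM in shCBX7 and 589 to 3701 CPM in shCBX8. Replicate 2 was the highest of each group, no marker was at 0, and Col3a1 led the sum. In shCBX8 against shCTR, 13 of the 14 had negative log2 fold changes. By the test given below 3 passed, all lower (21.4%, against 32.9% of all genes). Fbln2 went the other way (log2 fold change 0.57, edgeR adjusted p = 0.401). The 7 sustentacular cell markers, mainly Krt8 and Krt18, which are also keratins of other simple epithelia, summed to 103 to 1507 CPM in shCTR and 3513 to 9865 CPM in shCBX8. Other marker sums also moved with shCBX8. The 7 immature neuron markers, led by Ncam1, summed to 85 to 132 CPM in shCTR and 28.6 to 82.8 CPM in shCBX8. Of 6 tested, 2 passed lower (33.3%, against 32.9% of all genes), and 1 had a positive log2 fold change. The 6 markers of globose basal cells and neuronal progenitors summed to 4.26 to 22 and 36 to 83.7 CPM. This list was led by Sox2, which is also on the sustentacular list, and of 4 tested markers 2 passed higher and 1 lower. The 8 of macrophages, led by Cd68, summed to 4.81 to 7.29 and 9.14 to 15 CPM. Of 6 tested, 2 passed higher, and Csf1r had a log2 fold change of -0.88 (edgeR adjusted p = 0.563). The 8 of smooth muscle and pericytes, led by Rgs5, summed to 720 to 1954 and 1845 to 5546 CPM, with overlapping groups. Rgs5 passed higher (log2 fold change 2.51, edgeR adjusted p = 0.0321) and Cspg4 lower (-3.04, edgeR adjusted p = 0.0102). Of the 8, 4 had positive and 4 negative log2 fold changes. The sums of horizontal basal cell (309 to 1099 and 1063 to 1199 CPM), respiratory (78.2 to 225 and 167 to 379 CPM), endothelial (18.4 to 54.6 and 28.1 to 31.1 CPM) and ensheathing and Schwann cell markers (100 to 157 and 86.6 to 107 CPM) overlapped between shCTR and shCBX8. No marker was at 0 in all libraries of shCTR or of shCBX8, and the part of these cell types in the guidance results was not tested. In bulk RNA, fewer cells of a type and less RNA per cell cannot be told apart.

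In shCBX8 against shCTR, 30 of the 63 tested guidance genes passed the test, 8 higher and 22 lower. A gene passed when its Benjamini-Hochberg adjusted p over all 16669 genes, from edgeR's quasi-likelihood test, was under 0.05. Over all genes tested, 32.9% passed, 17.0% higher and 15.9% lower, so the share of guidance genes that were higher, 12.7%, was near the background, and the share that were lower, 34.9%, was above it. The median log2 fold change was -0.76 over the 63 guidance genes and -0.01 over all genes. Of the 30, 26 changed by over 2-fold and 13 by over 4-fold, against 3055 and 1401 of the 5478 genes that passed over all genes. Libraries of the 2 groups did not overlap for 34 guidance genes, 29 of them among the 30, against 42.4% of all genes. The ligands split into 7 higher and 10 lower of 33, and the receptors into 1 higher and 12 lower of 30. Whether ligands and receptors differ was not tested.

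Among the 30 calls, 11 held with each of the 10 libraries left out in turn: Epha7, Sema3d, Sema6a, Plxnc1, Plxna3, Nrp1, Nrp2, Robo2 and Unc5c, all lower, and Sema4a and Ntn1, both higher. Without shCBX8 1 the number called was 12, and without shCBX8 6 it was 14, so the count rests on these libraries. Over all genes the number called also fell, from 5478 to 2261 and 2279 in the same fits. Without shCTR 1 and 2, the number called was 17, 16 of them from the 30, and the number over all genes was 2409 against 5478. The unmapped shares of the remaining controls, shCTR 5 and 6, were still above those of every knockdown library. The calls that ended there were those of Epha4, Epha3, Ephb1, Ephb3, Efna2, Efna5, Efnb3, Efnb1, Sema3g, Sema4b, Sema4d, Sema4g, Sema6c and Sema5a (adjusted p 0.0531 to 0.207). With the background covariate, 13 of the 30 calls held, and the values of the 17 others are given with their families. In shCBX8, replicate 2 lay nearest to control in 14 of the 22 lower genes and in 6 of the 8 higher ones, and this was the shCBX8 library with the highest fibroblast marker sum.

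**Figure D1:**
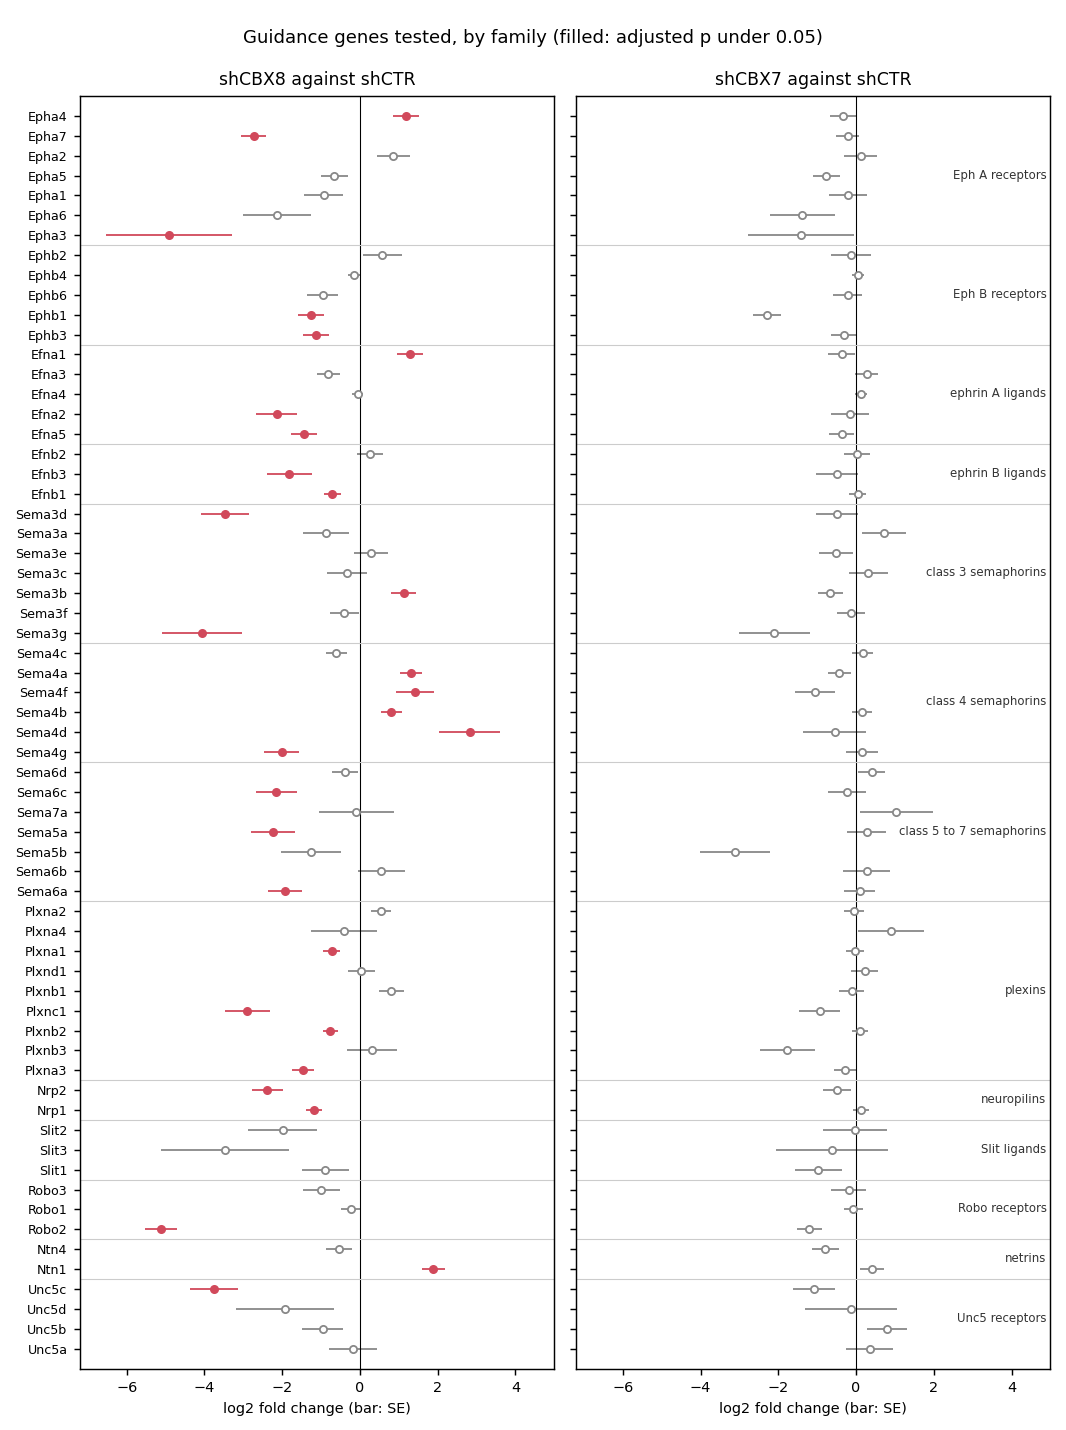
Log2 fold changes of the 63 tested guidance genes by family in shCBX8 (left) and shCBX7 (right) against shCTR, with bars for the SE and filled points for adjusted p under 0.05. On the left 22 filled points lie below 0 and 8 above, and on the right no point is filled.

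Polycomb complexes are known to favour promoters rich in CpG dinucleotides, so the promoters of the called genes are shown. RefSeq gave a window for 59 of the 68 genes on GRCm38.p6, and 9 had none (Sema3f, Sema3b, Plxna4, Slit1, Plxna1, Ntn1, Sema6a, Efnb3 and Unc5d). The 250 bases before the start are printed 5′ to 3′ on the strand of the gene, with each CpG in capitals, for the genes with the smallest p in each direction that averaged at least 1 CPM and whose RefSeq and GENCODE starts lay within 10 bases of each other. These were the lower genes Robo2 (chr16:74411826-74412075, minus strand), Epha7 (chr4:28812881-28813130, plus strand) and Plxna3 (chrX:74328816-74329065, plus strand), and the higher genes Epha4 (chr1:77515089-77515338, minus strand) and Sema4f (chr6:82939770-82940019, minus strand).
Robo2: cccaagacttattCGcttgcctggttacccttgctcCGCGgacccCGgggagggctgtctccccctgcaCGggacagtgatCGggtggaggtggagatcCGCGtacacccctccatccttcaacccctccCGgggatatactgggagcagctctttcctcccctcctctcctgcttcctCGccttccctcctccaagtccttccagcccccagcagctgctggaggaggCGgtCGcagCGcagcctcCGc
Epha7: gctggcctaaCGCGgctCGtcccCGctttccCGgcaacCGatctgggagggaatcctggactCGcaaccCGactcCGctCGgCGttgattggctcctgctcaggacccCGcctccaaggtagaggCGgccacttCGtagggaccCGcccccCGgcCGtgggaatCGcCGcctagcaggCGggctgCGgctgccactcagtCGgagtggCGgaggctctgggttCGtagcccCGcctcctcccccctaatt
Plxna3: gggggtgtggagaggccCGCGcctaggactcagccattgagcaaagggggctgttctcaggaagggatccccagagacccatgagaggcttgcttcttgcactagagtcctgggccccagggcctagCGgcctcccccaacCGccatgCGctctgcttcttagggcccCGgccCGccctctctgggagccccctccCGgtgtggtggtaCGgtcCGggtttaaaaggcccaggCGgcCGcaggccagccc
Epha4: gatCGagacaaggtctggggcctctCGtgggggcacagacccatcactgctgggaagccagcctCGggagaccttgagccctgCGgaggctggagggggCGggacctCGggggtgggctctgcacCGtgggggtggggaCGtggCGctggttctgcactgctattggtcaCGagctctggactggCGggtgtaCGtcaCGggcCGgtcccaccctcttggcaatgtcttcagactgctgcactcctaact
Sema4f: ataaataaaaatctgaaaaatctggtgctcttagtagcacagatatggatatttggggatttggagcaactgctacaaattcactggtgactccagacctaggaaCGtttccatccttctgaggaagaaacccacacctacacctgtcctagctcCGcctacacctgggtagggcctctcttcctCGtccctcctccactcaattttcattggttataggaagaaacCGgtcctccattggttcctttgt
These windows hold 14, 25, 12, 14 and 4 CpG, in that order, and RefSeq lists 3 starts for Robo2. At least 10 CpG were found in 17 of 19 windows of lower genes (89.5%, median 16), in 22 of 29 windows of tested genes that did not pass (75.9%, median 18), and in 3 of 6 windows of higher genes (50%, median 9). The share was 65.7% over the 15559 windows of all genes tested and 37.8% over all 32851 windows. Each member gave 1 window here, while these larger sets count every window of a gene. The limit of 10 bases was not applied to the shares. The RefSeq start lay 37064 bases from the GENCODE start for Sema4d, a higher gene. For Sema3a and Robo1, which did not pass, it lay 271370 and 354843 bases away. The motif GGGCGG, searched on both strands, was in 68.4% of the windows of lower genes, 79.3% of those that did not pass and 54.3% of those of genes tested. Binding of CBX proteins was not measured in these libraries.

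Eph A receptors bind mainly ephrin A ligands. Of the 7 tested, Epha4 rose, Epha7 and Epha3 fell, and 4 did not pass. Epha7 (chr4:28813131-28967499, plus strand), whose promoter has 25 CpG in the window above, measured 90.2, 102, 53.7 and 50.8 CPM in shCTR, 55, 86.1 and 49.5 CPM in shCBX7, and 9.49, 13.6 and 10.5 CPM in shCBX8, where libraries are listed here and below in the order 1, 2, 5, 6 for shCTR, 1, 2, 5 for shCBX7 and 1, 2, 6 for shCBX8. Every shCBX8 library lay below every other library, and the fall was 6.63-fold (log2 fold change -2.73, SE 0.32, adjusted p = 0.00156). Epha4 (chr1:77367185-77515088, minus strand), which binds ephrins of both the A and the B class, measured 155, 141, 149 and 113 CPM in shCTR, 69.3, 76.8 and 186 CPM in shCBX7, and 334, 221 and 395 CPM in shCBX8. All shCBX8 libraries were above all controls, by 2.27-fold (log2 fold change 1.18, SE 0.34, adjusted p = 0.0277). Epha3 measured 156, 245, 34.7 and 29.2 CPM in shCTR, 13.4, 109 and 8.46 CPM in shCBX7, and 0.377, 11 and 0.366 CPM in shCBX8 (log2 fold change -4.91, SE 1.63, adjusted p = 0.0447). Its groups did not overlap, but replicate 2 was the highest library of each group, as for the fibroblast marker sum, whose part in this fall was not tested.

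Epha2, which binds ephrin A1, measured 57.8, 44.4, 114 and 164 CPM in shCTR, 76.3, 80.5 and 152 CPM in shCBX7, and 171, 171 and 175 CPM in shCBX8 (log2 fold change 0.86, adjusted p = 0.143; 1.26 and 0.037 without shCTR 6), and Epha1 had a log2 fold change of -0.93 (adjusted p = 0.177). Epha5 and Epha6 were under 6 CPM in every library. Per kilobase of exon, the scale used for levels between genes, Epha2 was the highest of the family in shCTR (20.3 ± 11.7 CPM per kilobase, SD, n = 4) and Epha4 in shCBX8 (39.3 ± 11, SD, n = 3). The summed level of the family was 72.6 ± 10.4 CPM per kilobase in shCTR and 85.1 ± 8.11 in shCBX8, with overlapping libraries. The Epha4 call ended without any of shCTR 1, 2, 5, 6, shCBX8 1 or 6 (adjusted p 0.0543 to 0.104), and the Epha3 call without any of shCTR 1, 2, 5, shCBX7 1, shCBX8 1 or 6 (0.0533 to 0.125). With the background covariate the values were 1.90 for Epha4 (adjusted p = 0.0561) and -3.52 for Epha3 (0.537).

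Eph B receptors bind mainly ephrin B. Ephb3 and Ephb1 fell, and 3 of the 5 did not pass. Ephb3 measured 47.9, 85.9, 49.4 and 49.7 CPM in shCTR, 25.8, 65.0 and 49.7 CPM in shCBX7, and 21.4, 27.8 and 30.3 CPM in shCBX8 (log2 fold change -1.13, SE 0.33, adjusted p = 0.0282). Its shCBX8 libraries were all below the controls, although the call ended without shCTR 2, shCBX8 1 or shCBX8 6 (adjusted p 0.0519 to 0.109). Ephb1 (log2 fold change -1.26, adjusted p = 0.023) was at most 1.03 CPM in any library, and its call ended without shCBX8 1 or 6 (adjusted p 0.092 and 0.0966). Of its stranded counts, 25.5% were on the opposite strand, and with these subtracted its log2 fold change was -0.24 (adjusted p = 0.84). Ephb4, the receptor of ephrin B2 in the vasculature and the highest of the family, measured 101, 142, 105 and 115 CPM in shCTR, 101, 143 and 116 CPM in shCBX7, and 93.1, 107 and 114 CPM in shCBX8 (log2 fold change -0.15, SE 0.16, adjusted p = 0.502). Its groups overlapped. Ephb6, which lacks kinase activity, had a log2 fold change of -0.96 (adjusted p = 0.0863). The background covariate ended the calls of Ephb3 (-0.70, adjusted p = 0.418) and Ephb1 (-1.01, adjusted p = 0.24).

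Ephrin A ligands are held in the membrane by a lipid anchor. Efna1 rose, Efna2 and Efna5 fell, and Efna3 and Efna4 did not pass. Efna1 measured 9.94, 9.87, 6.26 and 6.54 CPM in shCTR, 4.04, 7.13 and 7.73 CPM in shCBX7, and 20, 11.7 and 27.8 CPM in shCBX8 (log2 fold change 1.29, SE 0.34, adjusted p = 0.02). All shCBX8 libraries were above the other 7. Efna5, a repellent of many axons, measured 22.2, 33.7, 16.6 and 21.1 CPM in shCTR, 11.5, 26.8 and 15.9 CPM in shCBX7, and 9.35, 9.44 and 7.03 CPM in shCBX8 (log2 fold change -1.44, SE 0.33, adjusted p = 0.012). Efna2 measured 6.97, 9.87, 5.84 and 4.89 CPM in shCTR, 4.87, 8.41 and 5.23 CPM in shCBX7, and 0.985, 3.04 and 0.688 CPM in shCBX8 (log2 fold change -2.14, SE 0.53, adjusted p = 0.0157). Both fell below every library of the other groups. Efna4, the highest of the family at 16.9 ± 2.08 CPM per kilobase in shCTR (SD, n = 4), measured 27.7, 22.6, 30.7 and 26.8 CPM in shCTR, 28.4, 30.1 and 29.5 CPM in shCBX7, and 25, 21.4 and 31.1 CPM in shCBX8 (log2 fold change -0.06, SE 0.15, adjusted p = 0.777), and its groups overlapped. Efna1, Efna3 and Efna4 are neighbours on chromosome 3, with gaps of 32.8 and 10.4 kb, and had log2 fold changes of 1.29, -0.81 (adjusted p = 0.0614) and -0.06. Efna3 passed without shCTR 2 (-1.01, adjusted p = 0.0224), without shCTR 1 and 2 (-1.11, adjusted p = 0.0381) and with DESeq2 (-0.81, adjusted p = 0.0246). The Efna1 call ended without shCTR 5, shCBX8 1 or shCBX8 6 (adjusted p 0.0509 to 0.0911), that of Efna2 without shCBX8 1 or 6 (0.0561 and 0.0702), and that of Efna5 without shCBX8 6 (0.0573). Those of Efna2 (-2.34, adjusted p = 0.157) and Efna5 (-1.06, adjusted p = 0.216) also ended with the background covariate.

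Ephrin B ligands span the membrane and can signal back into their own cell. Efnb3 and Efnb1 fell and Efnb2 did not pass. Efnb1 measured 43.1, 40.0, 41.5 and 64.0 CPM in shCTR, 53.6, 38.8 and 53.6 CPM in shCBX7, and 28.2, 22.8 and 35.4 CPM in shCBX8 (log2 fold change -0.71, SE 0.22, adjusted p = 0.0348). Efnb3 measured 1.94, 2.96, 1.78 and 0.893 CPM in shCTR, 0.463, 1.75 and 1.78 CPM in shCBX7, and 0.629, 0.301 and 0.645 CPM in shCBX8 (log2 fold change -1.82, SE 0.58, adjusted p = 0.0377). For both genes all shCBX8 libraries were below the controls. Efnb2 measured 37.0, 45.2, 62.2 and 106 CPM in shCTR, 56.3, 56.2 and 78.3 CPM in shCBX7, and 85.7, 52.8 and 86.9 CPM in shCBX8 (log2 fold change 0.26, SE 0.34, adjusted p = 0.579), with overlapping groups. The Efnb1 call ended without shCTR 6, shCBX8 1 or shCBX8 2 (adjusted p 0.0596 to 0.112). That of Efnb3 ended without any 1 of the 4 shCTR or 3 shCBX8 libraries except shCTR 6 (0.0646 to 0.0963). With the background covariate Efnb3 was at 0.01 (adjusted p = 0.991) and Efnb1 at -1.05 (0.0671).

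Class 3 semaphorins are secreted. Of the 7 members, Sema3b rose, Sema3d and Sema3g fell, and 4 did not pass. Sema3d (chr5:12383385-12588948, plus strand) had the highest mean CPM of the family, with 420, 421, 231 and 480 CPM in shCTR, 296, 407 and 121 CPM in shCBX7, and 22.1, 66.4 and 15.7 CPM in shCBX8. All shCBX8 libraries were below all others, and the fall was 11.2-fold (log2 fold change -3.48, SE 0.62, adjusted p = 0.00497). Sema3b measured 11, 13.2, 7.44 and 8.38 CPM in shCTR, 4.70, 5.50 and 8.77 CPM in shCBX7, and 20, 15.0 and 30.6 CPM in shCBX8 (log2 fold change 1.13, SE 0.32, adjusted p = 0.0247). Sema3g, which acts mainly through neuropilin 2, measured 4.87, 7.91, 8.58 and 0.605 CPM in shCTR, 1.05, 2.52 and 0.285 CPM in shCBX7, and 0.503, 0.150 and 0.301 CPM in shCBX8 (log2 fold change -4.07, SE 1.03, adjusted p = 0.0172). The lowest control of Sema3g, shCTR 6, lay just above the highest shCBX8 library.

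Sema3a, a repellent that acts through neuropilin 1, measured 148, 68.6, 190 and 224 CPM in shCTR, 417, 174 and 188 CPM in shCBX7, and 55.2, 167 and 36.3 CPM in shCBX8 (log2 fold change -0.87, adjusted p = 0.274). Its groups overlapped through shCBX8 2, and without that library the log2 fold change was -1.79 (adjusted p = 0.0327). Sema3c and Sema3f had log2 fold changes of -0.34 and -0.40 (adjusted p = 0.633 and 0.426). In shCTR, Sema3d made up 42.2% of the level of the family per kilobase, and in shCBX8 the leading gene was Sema3c with 38.4%. The summed level was 107 ± 28 CPM per kilobase in shCTR (SD, n = 4) and 52.1 ± 21.7 in shCBX8 (SD, n = 3). Sema3d and Sema3a lie 536 kb apart on chromosome 5, and Sema3b and Sema3f lie 72.3 kb apart on chromosome 9. Some neighbours in the set had close values: Sema4a and Efna1, 811 kb apart on chromosome 3 (1.31 and 1.29), and Ephb6 and Epha1, 738 kb apart on chromosome 6 (-0.96 and -0.93). Others did not, such as Ntn1 and Efnb3 (1.89 and -1.82), Ntn4 and Plxnc1 (-0.54 and -2.90), and Plxnb3 and Plxna3 (0.31 and -1.46). Differences between neighbouring genes were not tested. The Sema3b call ended without any of shCTR 1, 5, 6, shCBX8 1 or 6 (adjusted p 0.0506 to 0.112), and that of Sema3g without shCBX8 1 or 6 (0.0529 and 0.0702). Sema3g moved to -0.91 with the background covariate (adjusted p = 0.697).

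Class 4 semaphorins, membrane proteins that bind B plexins, were the family with the most rises: Sema4d, Sema4b, Sema4f and Sema4a rose, Sema4g fell, and Sema4c did not pass. Sema4d, the ligand of plexin B1, measured 0.990, 0.351, 0.605 and 1.38 CPM in shCTR, 0.169, 0.119 and 1.43 CPM in shCBX7, and 6.79, 3.61 and 7.53 CPM in shCBX8, a 7.07-fold rise (log2 fold change 2.82, SE 0.79, adjusted p = 0.0249). Sema4b measured 30.7, 24.5, 41.1 and 36.7 CPM in shCTR, 33.2, 25 and 53.2 CPM in shCBX7, and 50.4, 64.6 and 59.7 CPM in shCBX8 (log2 fold change 0.81, SE 0.26, adjusted p = 0.0394). For both, the shCBX8 libraries lay above all controls. Sema4f, the higher gene with 4 CpG in its window, measured 2.42, 1.5, 0.890 and 0.893 CPM in shCTR, 0.569, 0.505 and 0.975 CPM in shCBX7, and 4.97, 1.74 and 4.69 CPM in shCBX8 (log2 fold change 1.42, SE 0.48, adjusted p = 0.0479). It was the 1 called gene whose libraries overlapped, since shCTR 1 lay above shCBX8 2. Sema4a, at most 1.96 CPM, had a log2 fold change of 1.31 (adjusted p = 0.0103). Sema4c passed without shCBX8 2 (log2 fold change -0.96, adjusted p = 0.0197).

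Sema4g measured 3.09, 3.21, 2.35 and 3.57 CPM in shCTR, 3.12, 4.66 and 2.40 CPM in shCBX7, and 0.545, 1.35 and 0.387 CPM in shCBX8 (log2 fold change -2.01, SE 0.45, adjusted p = 0.0115), with 19% of its stranded counts on the opposite strand. Its shCBX8 libraries were below all others. Of the risen genes, Sema4d and Sema4a started low, at 0.108 ± 0.0588 and 0.133 ± 0.0404 CPM per kilobase in shCTR (SD, n = 4). Sema4b was at 5.89 ± 1.28 CPM per kilobase in shCTR and 10.3 ± 1.28 in shCBX8 (SD, n = 4 and 3). Sema4c, which did not pass, was at 8.89 ± 1.59 and 5.81 ± 2.19. The summed level of the family was 15.7 ± 0.627 CPM per kilobase in shCTR and 18 ± 2.92 in shCBX8, with overlapping libraries. The calls ended without any of shCTR 1, 2, 5, shCBX8 1 or 6 for Sema4d (adjusted p 0.0544 to 0.0794), without any of shCTR 1, 2, 6, shCBX7 1, shCBX8 1, 2 or 6 for Sema4b (0.0534 to 0.108), without any of shCTR 2, 5, 6, shCBX7 1, 2, shCBX8 1 or 6 for Sema4f (0.054 to 0.161), and without shCBX8 1 for Sema4g (0.0577). With forward-strand counts subtracted, Sema4d and Sema4g had adjusted p of 0.0738 and 0.0759. The background covariate ended the calls of Sema4a (1.36, adjusted p = 0.101), Sema4b (0.47, adjusted p = 0.514) and Sema4d (2.75, adjusted p = 0.192).

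Semaphorins of classes 5 to 7 are bound to the membrane. Sema5a, Sema6a and Sema6c fell, none rose, and 4 of the 7 did not pass. Sema5a measured 151, 106, 135 and 173 CPM in shCTR, 169, 191 and 151 CPM in shCBX7, and 16.5, 63.2 and 10 CPM in shCBX8 (log2 fold change -2.24, SE 0.56, adjusted p = 0.0163). Sema6a, a ligand of A plexins, measured 8.35, 5.61, 11.5 and 17.9 CPM in shCTR, 10.6, 7.87 and 16.4 CPM in shCBX7, and 3.46, 2.04 and 3.05 CPM in shCBX8 (log2 fold change -1.93, SE 0.43, adjusted p = 0.011). Every shCBX8 library was below every other library for both. Sema6c, at most 1.65 CPM, had a log2 fold change of -2.15 (adjusted p = 0.0158). Sema7a, which has a lipid anchor and binds plexin C1 and integrins, had the widest spread of the family, with 43.0, 62.1, 187 and 639 CPM in shCTR, 937, 202 and 301 CPM in shCBX7, and 116, 436 and 106 CPM in shCBX8. Its log2 fold change was -0.09 (SE 0.96, adjusted p = 0.954), and its level of 70.6 ± 84.4 CPM per kilobase in shCTR (SD, n = 4) was the highest mean of all 67 genes, carried by shCTR 6. The Sema5a call ended without shCBX8 1 (adjusted p = 0.069) and that of Sema6c without shCBX8 1 or 6 (0.0546 and 0.0731). With the background covariate Sema6c was at -1.89 (adjusted p = 0.163), while Sema7a (-3.61, 0.00768) and Sema6d (-1.49, 0.0383) passed.

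Plexins carry the semaphorin signal through a domain that acts on small GTPases. Plxna1, Plxna3, Plxnb2 and Plxnc1 fell, none rose, and 5 of the 9 did not pass. Plxnb2 (chr15:89155549-89180788, minus strand), the highest plexin at 56.4 ± 8.57 CPM per kilobase in shCTR, measured 375, 405, 435 and 528 CPM in shCTR, 398, 538 and 462 CPM in shCBX7, and 224, 332 and 214 CPM in shCBX8 (log2 fold change -0.76, SE 0.20, adjusted p = 0.0202). Plxna3, a receptor partner of neuropilin 2, measured 44.8, 51.1, 40.3 and 32.2 CPM in shCTR, 30.4, 37.7 and 36.1 CPM in shCBX7, and 10.6, 23.6 and 11.8 CPM in shCBX8 (log2 fold change -1.46, SE 0.29, adjusted p = 0.00715). Plxnc1, the receptor of Sema7a, measured 26.8, 18.2, 11.4 and 5.76 CPM in shCTR, 8.11, 12.4 and 3.73 CPM in shCBX7, and 1.80, 2.56 and 1.89 CPM in shCBX8 (log2 fold change -2.90, SE 0.58, adjusted p = 0.00746). In all 3 the shCBX8 libraries were below every other library. Plxna1 had a log2 fold change of -0.73 (adjusted p = 0.0368). Plxna2 and Plxnb1 had values of 0.55 and 0.81 (adjusted p = 0.134 and 0.0782) and did not pass, although Plxnb1 did without shCBX7 5 or shCBX8 2 (0.81 and 1.04, adjusted p = 0.0337 and 0.0332). The calls ended without shCBX8 1 or 6 for Plxnb2 (adjusted p 0.0909 and 0.0916) and without any of shCTR 5, 6, shCBX8 1 or 6 for Plxna1 (0.0599 to 0.14). The background covariate moved Plxnc1 to -1.34 (adjusted p = 0.323) and ended the Plxna3 call (-1.49, adjusted p = 0.104).

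Both neuropilins fell. Nrp2 (chr1:62703285-62818695, plus strand) measured 145, 260, 339 and 263 CPM in shCTR, 196, 128 and 208 CPM in shCBX7, and 39.5, 74.7 and 30.6 CPM in shCBX8 (log2 fold change -2.38, SE 0.39, adjusted p = 0.00371). Nrp1 (chr8:128358604-128503363, plus strand), also a co-receptor of VEGF, measured 155, 215, 174 and 230 CPM in shCTR, 205, 187 and 244 CPM in shCBX7, and 88.5, 105 and 61.1 CPM in shCBX8 (log2 fold change -1.19, SE 0.21, adjusted p = 0.00526). For each, all shCBX8 libraries were below the other 7 libraries. Their summed level was 41.0 ± 8.70 CPM per kilobase in shCTR (SD, n = 4) and 12.8 ± 4.13 in shCBX8 (SD, n = 3), and Nrp2 made up 51.8% of it in shCTR while Nrp1 made up 68.1% in shCBX8. Both calls held under every alternative that was run.

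**Figure D2:**
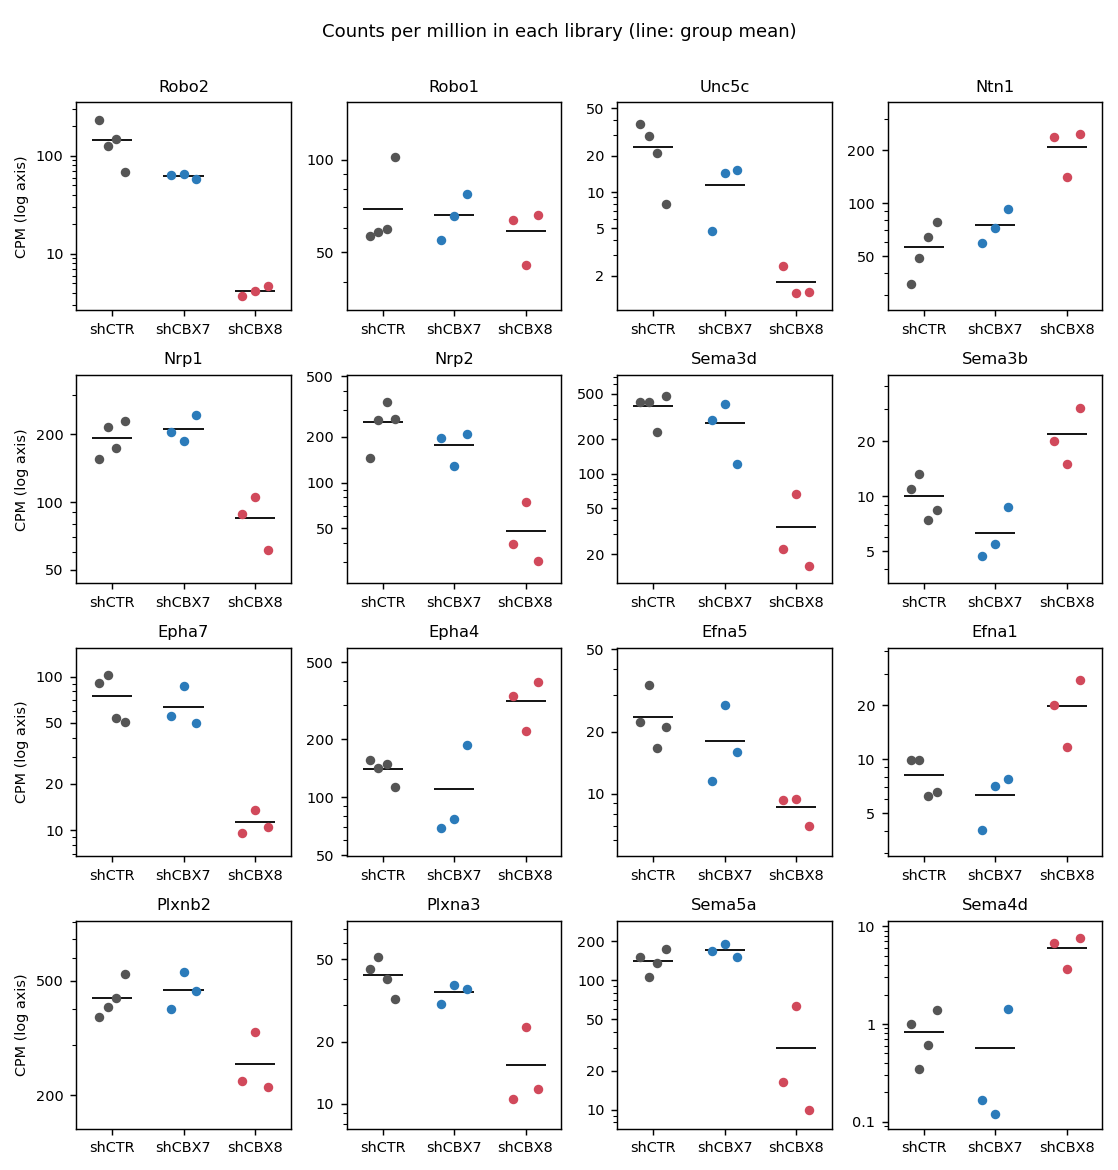
CPM on a log axis in each library for 16 guidance genes, with points for libraries and lines for group means. The shCBX8 points lie apart from those of shCTR in every panel except Robo1. Replicate 2 of shCBX8 (the middle red point) is nearest to control in every panel except Robo1, Robo2 and Unc5c, for Efna5 by little.

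Robo receptors bind Slits. Robo2 (chr16:73891839-74411825, minus strand) fell, and Robo1 and Robo3 (log2 fold change -0.99, adjusted p = 0.127) did not pass. Robo2 measured 234, 125, 147 and 68.9 CPM in shCTR, 63.8, 65.8 and 57.6 CPM in shCBX7, and 3.71, 4.12 and 4.64 CPM in shCBX8. The 3 groups did not overlap, and the fall in shCBX8 was 34.5-fold (log2 fold change -5.11, SE 0.41, adjusted p = 0.000751), the largest and the smallest p of the 63 genes. Its shCBX8 libraries, replicate 2 included, lay within 1 CPM of each other. Robo1, which lies 846 kb away on the same chromosome, measured 56.7, 58.2, 59.7 and 102 CPM in shCTR, 54.9, 65.5 and 77.3 CPM in shCBX7, and 63.9, 45.5 and 66.2 CPM in shCBX8 (log2 fold change -0.24, SE 0.24, adjusted p = 0.46). In shCTR, Robo2 made up 65.6% of the Robo level per kilobase, and in shCBX8 Robo1 made up 90%. The summed level was 12.9 ± 3.22 CPM per kilobase in shCTR, 7.87 ± 0.573 in shCBX7 and 3.94 ± 0.699 in shCBX8 (SD, n = 4, 3 and 3). The Robo2 call held under every alternative that was run.

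No Slit passed with edgeR, while DESeq2 called Slit2 (adjusted p = 0.0303) and Slit3 (adjusted p = 0.0463). Slit2 measured 138, 570, 203 and 224 CPM in shCTR, 123, 458 and 255 CPM in shCBX7, and 22.2, 173 and 19.4 CPM in shCBX8 (log2 fold change -1.99, SE 0.88, adjusted p = 0.107). Slit3 measured 11.1, 154, 17.3 and 20.6 CPM in shCTR, 5.69, 64.1 and 29.1 CPM in shCBX7, and 0.272, 13.4 and 0.172 CPM in shCBX8 (log2 fold change -3.47, SE 1.65, adjusted p = 0.132). In each group replicate 2 was the highest library for both genes, and only shCBX8 2 overlapped the controls. Without shCBX8 2 the log2 fold changes were -3.77 for Slit2 and -7.81 for Slit3 (adjusted p = 0.00664 and 0.0127). The fibroblast marker sum was 35014, 19759 and 3701 CPM in the libraries of replicate 2, against at most 12685, 8009 and 736 CPM in the other libraries of shCTR, shCBX7 and shCBX8. Its part in the Slit levels was not tested.

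**Figure D3:**
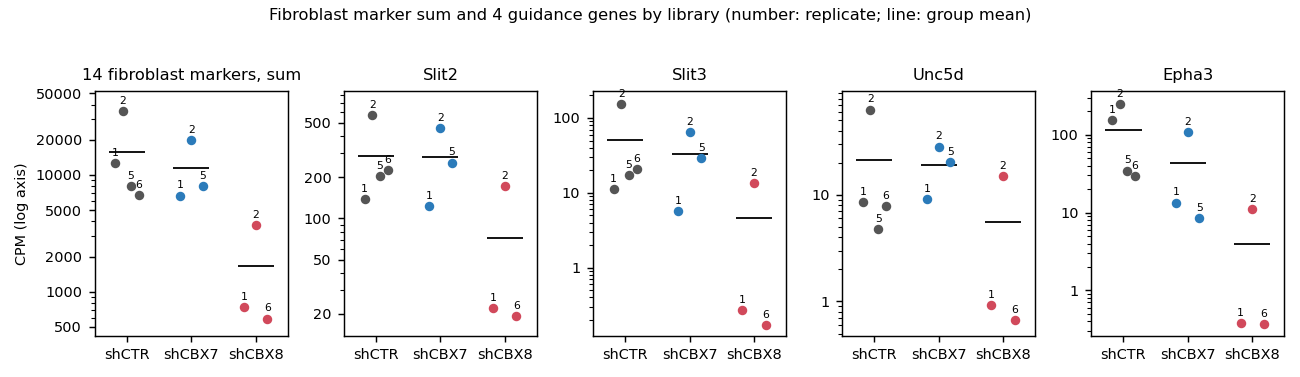
Summed CPM of 14 fibroblast markers and CPM of Slit2, Slit3, Unc5d and Epha3 in each library on log axes, with replicate numbers beside the points and lines for group means. Replicate 2 is the highest point of each group in all 5 panels, and shCBX8 1 and 6 lie below all others in each.

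Ntn1 (chr11:68209364-68400823, minus strand), a secreted cue that attracts or repels according to the receptor, rose. It measured 34.6, 48.7, 64.0 and 78.1 CPM in shCTR, 59.1, 72.5 and 93.0 CPM in shCBX7, and 236, 140 and 248 CPM in shCBX8, and all shCBX8 libraries were above the other 7. The rise was 3.69-fold (log2 fold change 1.89, SE 0.30, adjusted p = 0.00353), the smallest p among the 8 higher genes. With the background covariate it was at 1.58 (adjusted p = 0.0737). Ntn4, which binds laminins, measured 30.4, 62.8, 25.3 and 23.8 CPM in shCTR, 17.7, 21.4 and 22.9 CPM in shCBX7, and 24.7, 17.9 and 30.6 CPM in shCBX8 (log2 fold change -0.54, adjusted p = 0.244). In shCTR, Ntn4 made up 51.2% of the netrin level per kilobase, and in shCBX8 Ntn1 made up 83.5% of a level that was 39.7 ± 11 CPM per kilobase against 18.6 ± 4.47 (SD, n = 3 and 4).

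Unc5 receptors mediate repulsion by netrin 1. Unc5c (chr3:141465216-141834924, plus strand) fell, and the other 3 did not pass. It measured 37.3, 29.6, 21 and 8 CPM in shCTR, 4.74, 14.3 and 15.2 CPM in shCBX7, and 2.39, 1.44 and 1.46 CPM in shCBX8, a 13.5-fold fall (log2 fold change -3.76, SE 0.62, adjusted p = 0.00389). All shCBX8 libraries were below the other 7. The background covariate moved Unc5c to -1.47 (adjusted p = 0.0895) and ended the call. Unc5b, the highest of the family, measured 23.0, 31.1, 32.0 and 106 CPM in shCTR, 103, 88.6 and 60.3 CPM in shCBX7, and 18.9, 35.4 and 19.9 CPM in shCBX8 (log2 fold change -0.96, SE 0.52, adjusted p = 0.18). With the background covariate Unc5b passed (-2.71, adjusted p = 0.00558). Unc5d measured 8.55, 63.1, 4.77 and 7.80 CPM in shCTR, 9.06, 28.4 and 20.2 CPM in shCBX7, and 0.922, 15.1 and 0.667 CPM in shCBX8 (log2 fold change -1.92, adjusted p = 0.262). It followed the replicate 2 pattern of the Slits, and without shCBX8 2 its log2 fold change was -4.72 (adjusted p = 0.0227).

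**Figure D4:**
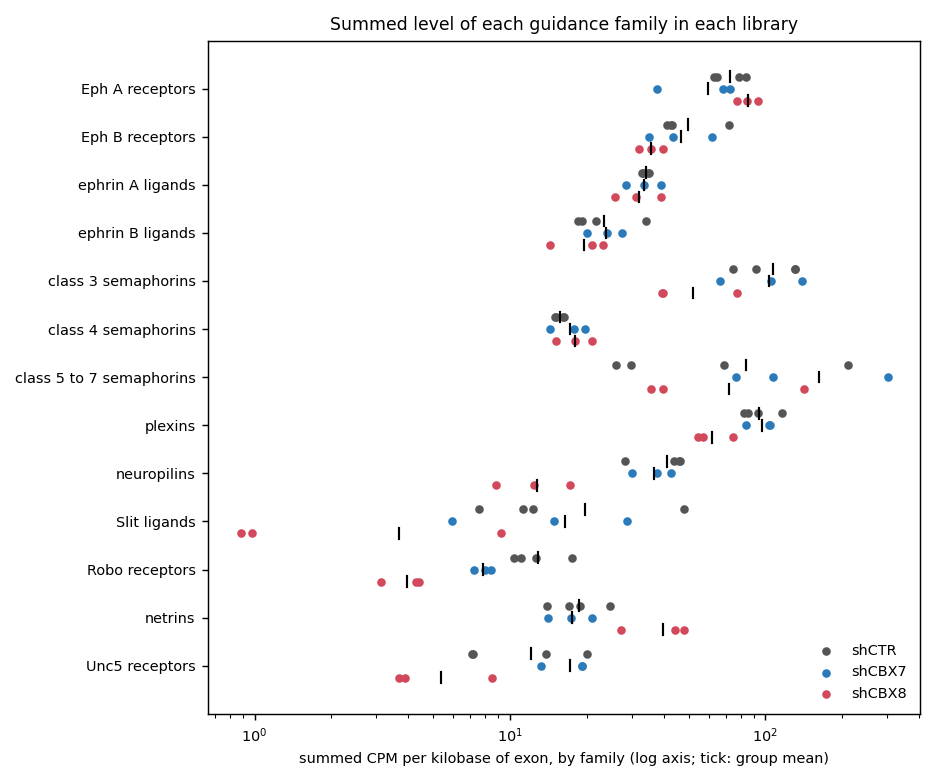
Summed CPM per kilobase of exon of each family in each library on a log axis, with ticks for group means. The shCBX8 libraries lie below those of shCTR for the neuropilins, the Robo receptors, the Eph B receptors and the plexins and above them for the netrins, and overlap them for the Eph A receptors, ephrins and class 4 semaphorins.

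Other genes of the guidance pathways were counted in 3 lists. Of 14 netrin receptors and co-ligands outside the families, none rose and 3 fell. The share called was 21.4%, against 32.9% of all genes, of which 15.9% were lower. The 3 were Rgma, a ligand of neogenin (log2 fold change -1.69), Ntng1, a membrane-anchored netrin relative (-2.97), and Flrt2, a ligand of Unc5 receptors (-1.80). Dcc was at most 0.8 CPM in any library (log2 fold change -2.05, adjusted p = 0.0677), and neogenin, Neo1, was at 102 ± 15.8 CPM in shCTR (SD, n = 4) and 94.2 ± 9.18 CPM in shCBX8 (SD, n = 3; log2 fold change -0.12, adjusted p = 0.54). The median log2 fold change of this list was -1.46. Of 50 cytoplasmic effectors, 8 rose and 6 fell, 28% in all, near the 32.9% of all genes, with a median of -0.09. Among them were Enah, an actin regulator downstream of Robo and netrin receptors (1.93, adjusted p = 0.00402), Gipc1, an adaptor that binds neuropilin 1 (0.76), and Dpysl2, a mediator of semaphorin 3A signals (-1.30). Of 21 tested co-factors and proteases, 2 rose and 7 fell, with a median of -0.36. The share called was 42.9%, with 33.3% lower, against 32.9% and 15.9% of all genes. Sdc2, a heparan sulfate proteoglycan, fell from 414 ± 87.1 to 79.1 ± 29.3 CPM (log2 fold change -2.39, adjusted p = 0.00188), and Dag1 (-0.63), a ligand of Slits, Ptprs (-1.33) and the integrin Itgb1 (-0.71) fell as well.

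In shCBX7 against shCTR, none of the 63 guidance genes passed with edgeR, and none of all 16669 genes did (0%). At an unadjusted p under 0.05 there were 6 guidance genes (Ephb1, Sema3g, Sema5b, Plxnb3, Robo2 and Ntn4, all with lower means), against 5.85% of all genes, and DESeq2 called 0.549% of all genes and 1 guidance gene. That gene was Ephb1, with 1.03, 0.852, 0.463 and 0.720 CPM in shCTR against 0.147, 0.119 and 0.190 CPM in shCBX7 (edgeR log2 fold change -2.29, SE 0.37, adjusted p = 0.247; DESeq2 log2 fold change -2.31, adjusted p = 0.00224). Robo2 did not overlap between the groups, as given above, and its log2 fold change was -1.20 (SE 0.33, adjusted p = 0.413). The Robo2 libraries in shCBX7 lay between those of shCTR and shCBX8. The positive values of smallest p were those of Unc5b (0.80, SE 0.51) and Ntn1 (0.41, SE 0.30), both with adjusted p = 0.929. The median over the 63 genes was -0.16, 7 genes had groups that did not overlap, and 5.42% of all genes had such groups. Since the shCBX7 label was not checked by the level of Cbx7, these values describe the libraries labelled shCBX7.

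In shCBX8 against shCBX7, 25 guidance genes passed, 7 higher and 18 lower, against 28.6% of all genes, 15.3% higher and 13.3% lower, with a median log2 fold change of -0.75. The groups did not overlap for 31 guidance genes and for 48.2% of all genes. This comparison shares the shCBX8 libraries with the one against shCTR. Efna3 (log2 fold change -1.08, adjusted p = 0.0315) and Unc5b (-1.77, adjusted p = 0.0429) passed here and not against shCTR. The log2 fold change of Robo2 was -3.91 (SE 0.39, adjusted p = 0.00157), that of Sema3d -2.98 (adjusted p = 0.0101), that of Nrp1 -1.32 (adjusted p = 0.00557) and that of Nrp2 -1.88 (adjusted p = 0.0102). Sema3b, with 1.79 (adjusted p = 0.00832), and Sema4f, with 2.47 (adjusted p = 0.0123), were higher, as was Epha4, with 1.52 (adjusted p = 0.018). With each library left out in turn, 9 of the 25 calls held: Epha7, Sema3d, Sema6a, Nrp1, Nrp2 and Robo2, lower, and Sema3b, Sema4a and Sema4f, higher. The number called was 12 without shCBX8 1, 11 without shCBX8 6 and 16 without shCBX7 2. Over all genes it also fell, from 4762 to 1848, 1784 and 2900 in the same fits. The Efna3 call ended without any of shCBX7 2, 5, shCBX8 1 or 6 (adjusted p 0.0569 to 0.114), and that of Unc5b without any of shCTR 5, shCBX7 1, 2, shCBX8 1 or 6 (0.0539 to 0.143).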

How the data were processed

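Total RNA libraries were made with a stranded kit from 500 ng of RNA per sample, per the labels' protocols. The submitters' processing notes name bcl2fastq 2.17, Trim Galore 0.4.3, STAR 2.5.0a and the genome build mm10. For the annotation release, the sources used here name none. Raw read counts per Ensembl gene were deposited by the authors, as unstranded, forward-strand and reverse-strand columns. The reverse-strand counts were used (forward strand 3.42 to 10.4% of stranded counts). The 4 rows that name no gene were left out: unmapped (5.03 to 21.7% of reads), multimapping (15.4 to 22.1%), in no gene (12.5 to 23.6%) and ambiguous (0.290 to 0.637%). Symbols, exon lengths and positions came from GENCODE M21 (GRCm38), which matched 40217 of 41091 identifiers.

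Genes were filtered with filterByExpr (minimum count 10), scaled by TMM and tested with edgeR 4.0.16 (R 4.3.3) in a quasi-likelihood fit over all 10 libraries, with group as the only factor, a Benjamini-Hochberg adjustment over 16669 genes and a threshold of 0.05. The code was tested on simulated data. CPM are relative to the scaled library size. Within groups, libraries differed beyond sampling noise (chi-square per degree of freedom 28.2 to 416), so each counted as 1 replicate. Alternatives were RLE scaling, library size only, a filter on a mean CPM of at least 1, no low-count filter, DESeq2 1.42.0, unstranded counts, forward-strand counts subtracted, only the 2 groups compared, a replicate block, each library left out, shCTR 1 and 2 left out, and a background covariate (log2 of the forward-strand CPM summed over 1653 olfactory and vomeronasal receptor genes).

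The rule for the members reads gene symbols only, but this set of families and the gene lists were chosen with earlier results of these data known. Values per library are given for the member of each family with the highest mean CPM and for called members with a mean of at least 1 CPM, up to the 3 with the smallest p in each direction of a family, plus the 2 of smallest p in each direction for shCBX7, and up to 4 members of each pathway list are named. Other genes named with values, such as Epha2, Sema3a, Slit3, Robo1, Ntn4, Unc5d, Dcc and Neo1, were added after their values were seen.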

Additional observations from a re-analysis of the deposited data

Results flagged for a closer look

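Among the 4 control libraries, 1 library stood apart from the other 3 for 7 of the 51 guidance genes checked, those with values in the text, by a Dixon test at its 95% critical value, which chance alone passes in about 1 of 20 groups. In shCTR 2, Slit3 was at 154 CPM (others 11.1 to 20.6), Unc5d at 63.1 CPM (others 4.77 to 8.55), Ephb3 at 85.9 CPM (others 47.9 to 49.7) and Ntn4 at 62.8 CPM (others 23.8 to 30.4). In shCTR 6, Unc5b was at 106 CPM (others 23.0 to 32.0), Robo1 at 102 CPM (others 56.7 to 59.7) and Efnb1 at 64.0 CPM (others 40.0 to 43.1). The same shCTR 2 library had the highest fibroblast marker sum, 35014 CPM, and its part in these values was not tested.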

How the results depend on the processing

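Counts in shCBX8 against shCTR moved most with the libraries: 12 to 34 guidance genes passed with 1 library left out and 2261 to 6193 of all genes, against 30 and 5478. Without shCTR 1 and 2 the counts were 17 and 2409, and with the background covariate 18 and 2311. Other settings gave 26 to 35 guidance genes. In shCBX8 against shCBX7, leaving out 1 library gave 11 to 32 guidance genes (25 in the main result) and 1784 to 6005 of all genes (4762). In shCBX7 against shCTR, DESeq2 called 1 guidance gene and 91 of all genes, and leaving out 1 library gave 0 to 41 of all genes. Scaling by library size only moved the median of all genes to 0.17 in shCBX8 against shCTR, with 67.2% of calls higher against 51.6%, and in shCBX8 against shCBX7 it split the guidance calls into 9 higher and 14 lower. It turned Ephb4 (0.05), Efna4 (0.12) and Sema7a (0.04).

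The replicate numbers were not taken to pair the libraries, because the correlation of deviations from the group means was not over 0.1 in each of the 8 pairs with the same number. It was -0.0783 for shCTR 1 and shCBX7 1 and 0.0749 for shCTR 6 and shCBX8 6, but 0.13 to 0.691 in the other 6, highest for shCTR 2 and shCBX7 2. Among the shCBX7 libraries, shCTR 1 correlated best with replicate 5 rather than 1. With the number as a block, 29 guidance genes passed in shCBX8 against shCTR, 29 in shCBX8 against shCBX7 and 0 in shCBX7 against shCTR, and Sema7a had a log2 fold change of 0.55. In shCBX8 against shCTR the block ended 6 of the 30 calls, those of Efna1 (adjusted p = 0.0581), Efnb3 (0.11), Sema3b (0.0598), Sema3g (0.0531), Sema4f (0.0803) and Plxna1 (0.0584). It added Slit2 (log2 fold change -2.50, adjusted p = 0.00461), Slit3 (-4.53, 0.00662), Unc5d (-2.54, 0.0276), Epha2 (1.22, 0.0262) and Plxnb1 (0.90, 0.0188).

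The background covariate turned 9 values, and the cause was not tested: in shCBX8 against shCTR Efnb3 (0.01), Epha2 (-0.08), Epha1 (0.29), Efna4 (0.05), Efnb2 (-0.39) and Ntn4 (0.40), and in shCBX7 against shCTR Robo2 (0.38), Unc5b (-1.63) and Ntn1 (-0.04). In shCBX8 against shCTR the covariate also gave calls outside the 30, among them Sema7a (-3.61, adjusted p = 0.00768), Unc5b (-2.71, 0.00558) and Sema6d (-1.49, 0.0383). Without shCTR 1 and 2, Efnb2 was -0.18. Leaving out 1 library at a time gave -0.21 to 0.06 for Efna4, -1.07 to 1.17 for Sema7a and -0.36 to 0.01 for Robo1. Of the 30 calls, 13 held with the covariate and 6 under every alternative (Epha7, Sema3d, Sema6a, Nrp2, Nrp1 and Robo2). With 3 or 4 libraries per group, genes under about 1 CPM, such as Ephb1, rest on few counts.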
